A study of Mus musculus with 3 samples.

Results

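Antisense long noncoding RNA (lncRNA) genes were described in RNA from the chromatin of mouse bone marrow-derived macrophages. Members were the genes for which every transcript is classed as antisense in the GENCODE M21 annotation, that is, noncoding RNAs placed against a gene of the opposite strand. They numbered 2945 of 55536 genes. Ptgs2os, Ptgs2os2, Kcnq1ot1, Airn and Tsix were left out by name, 3 of which would otherwise have entered. A further 143 genes with both antisense and other transcript classes were not members. Total RNA, depleted of ribosomal RNA, had been sequenced from primary C57BL/6J macrophages in 1 group of 3 libraries, labelled biological replicates 1, 2 and 3. All 3 had received Lipid A, the membrane anchor of lipopolysaccharide and a TLR4 ligand. A dose of 100 ng/ml was given over 12 h, washed out for 12 h and given anew at 100 ng/ml over 20 min. No group without Lipid A was analysed here, so no level below is an effect of the treatment. Starting RNA was 1 µg, 250 ng and 500 ng for replicates 1, 2 and 3, so amount and replicate cannot be told apart. The labels give the same donor entry for all 3 libraries, and the spread between them may in part be technical.

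The libraries held 13953780, 24222661 and 16571228 expected counts (assigned reads, which are divided where a read fits several genes). Of these, 13610746, 24105317 and 16517065 were on genes. All 8 macrophage markers, among them Adgre1, Csf1r and Spi1, reached 1 TPM (a level corrected for transcript length and for the size of the library) in every library, with means from 33.9 to 334 TPM. Of 15 markers of T cells, B cells, neutrophils, dendritic cells, erythroid cells and stroma, 1 did, and their means ran from 0 to 1.62 TPM.

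Antisense lncRNAs are transcribed from the strand opposite to another gene and overlap it, lie within it or start beside it. Some act in cis, on the neighbouring gene, through the act of transcription or through proteins that the RNA recruits, and many have no known function. A pair that starts head to head can share a promoter region that opens in both directions. The chromatin fraction holds RNA that is still being made or is retained in the nucleus, so it contains unspliced messenger RNA as well as lncRNA. An antisense gene that lies in an intron of an active gene is therefore measured amid the unspliced RNA of its partner, which runs from the other strand.

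To show what starts an antisense gene, 300 bases (250 before and 50 after the RefSeq start) are given for the 6 antisense genes of highest level, among those named after their sense gene, whose RefSeq start lay within 100 bases of a GENCODE start. The sequences are from RefSeq on GRCm38.p6, 5′ to 3′ on the strand of the antisense gene, with each CG pair in capitals. Rab10os is at chr12:3235541-3235840 (plus strand) and Dnmt3aos at chr12:3862195-3862494 (minus strand). Uckl1os is at chr2:181578230-181578529 (plus), Rab26os at chr17:24528001-24528300 (plus), Galnt6os at chr15:100695482-100695781 (plus) and Rptoros at chr11:119834316-119834615 (minus).
Rab10os: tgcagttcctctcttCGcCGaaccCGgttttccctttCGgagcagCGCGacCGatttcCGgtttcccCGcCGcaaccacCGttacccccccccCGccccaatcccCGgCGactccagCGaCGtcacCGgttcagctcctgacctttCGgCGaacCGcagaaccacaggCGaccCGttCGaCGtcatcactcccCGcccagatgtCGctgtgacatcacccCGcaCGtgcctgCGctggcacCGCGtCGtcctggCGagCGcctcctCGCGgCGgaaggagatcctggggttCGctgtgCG
Dnmt3aos: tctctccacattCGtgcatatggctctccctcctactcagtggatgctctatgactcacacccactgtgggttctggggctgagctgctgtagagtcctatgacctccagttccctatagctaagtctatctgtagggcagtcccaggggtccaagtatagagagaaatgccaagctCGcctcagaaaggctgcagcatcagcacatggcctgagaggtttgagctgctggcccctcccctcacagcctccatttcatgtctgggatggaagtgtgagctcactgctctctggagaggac
Uckl1os: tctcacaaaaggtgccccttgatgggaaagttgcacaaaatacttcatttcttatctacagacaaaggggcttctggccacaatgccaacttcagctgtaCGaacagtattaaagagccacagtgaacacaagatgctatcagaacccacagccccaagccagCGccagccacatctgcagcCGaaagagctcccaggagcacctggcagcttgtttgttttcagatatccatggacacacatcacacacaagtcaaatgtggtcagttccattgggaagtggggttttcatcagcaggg
Rab26os: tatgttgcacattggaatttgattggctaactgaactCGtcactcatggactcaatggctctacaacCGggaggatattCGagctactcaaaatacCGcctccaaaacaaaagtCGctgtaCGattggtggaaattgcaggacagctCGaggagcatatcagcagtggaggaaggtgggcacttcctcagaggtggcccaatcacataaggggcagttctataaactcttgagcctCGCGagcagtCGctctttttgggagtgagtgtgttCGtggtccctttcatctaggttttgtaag
Galnt6os: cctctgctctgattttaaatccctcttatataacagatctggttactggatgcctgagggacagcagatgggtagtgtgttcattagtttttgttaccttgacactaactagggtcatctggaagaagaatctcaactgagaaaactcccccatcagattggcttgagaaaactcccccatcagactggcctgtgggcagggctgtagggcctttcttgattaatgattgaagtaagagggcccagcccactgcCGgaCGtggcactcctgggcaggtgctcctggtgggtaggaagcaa
Rptoros: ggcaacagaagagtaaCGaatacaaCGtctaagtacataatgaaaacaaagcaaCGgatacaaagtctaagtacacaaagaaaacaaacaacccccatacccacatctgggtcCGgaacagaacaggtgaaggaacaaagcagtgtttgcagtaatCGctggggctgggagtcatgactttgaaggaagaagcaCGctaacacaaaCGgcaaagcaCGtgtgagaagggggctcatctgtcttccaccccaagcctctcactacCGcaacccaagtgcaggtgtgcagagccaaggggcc

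The 6 windows were unlike in their CG content. Rab10os had 39 CG pairs, 1.22 times the number its C and G content would give, whereas Dnmt3aos had 2 (0.0896 times), Galnt6os 2 (0.109 times) and Uckl1os 3 (0.170 times). Rptoros had 9 and Rab26os 11. Over 697 antisense genes whose RefSeq and GENCODE starts lay within 100 bases of each other, this ratio had a median of 0.327, beside 0.384 over all 32851 promoters of the table. Position separated the members more than level did. The median ratio was 0.662 in 298 genes that started head to head with a protein-coding gene and 0.232 in 232 that lay inside one. Among head to head genes it was 0.717 in the 83 that reached 1 TPM in every library and 0.518 in the 107 with 0 counts in every library. Inside a partner it was 0.214 in the 51 that reached 1 TPM and 0.215 in the 106 at 0 counts.

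Motifs were searched on both strands of the same windows. The TATA box (TATAAA) was found in 10.2% of antisense promoters and 13.6% of all promoters. The AP-1 motif TGANTCA, bound by Jun and Fos proteins, was in 8.61% against 7.81%, and the PU.1 motif GAGGAAGT, of the macrophage lineage factor Spi1, in 3.44% against 3.20%. A core of the interferon-stimulated response element (GAAANNGAA) was in 6.74% against 8.56%, and a core of the NF-kB motif (GGGANTTTC) in 1.29% against 1.11%. Of the 6 windows above, Rab10os held the interferon element core, Dnmt3aos the AP-1 motif, and Rab26os the TATA box and the PU.1 motif. Of the matched antisense genes whose window held the interferon element core and that reached 1 TPM in every library, F630028O10Rik, on chromosome X, was the most abundant. These shares describe letters in the windows and not binding.

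Whether counting used the strand of the reads is not given in the sources used here, and the listed signal tracks are not split by strand. Reads of an antisense gene and of an opposite-strand gene therefore cannot be told apart from the sources alone. One property of the counts bears on this, and its groups were chosen after the values were seen. Counts that are not whole show that reads were divided between genes. Of members with at least 10 counts in every library and no overlap with same-strand exons, 210 of 215 (97.7%) had whole counts in all 3 libraries when none of their exonic bases lay over an opposite-strand exon. The count was whole when within 0.005 of an integer. The share was 68 of 70 with a longest run of 1 to 100 bases over opposite-strand exons, 59 of 173 with over 100 to 250 bases, 4 of 61 with over 250 to 400 and 3 of 128 with more than 400. Division of reads thus moved with the overlap of opposite-strand exons. Levels of antisense genes with a run of more than 100 bases over opposite-strand exons are mostly estimates from divided reads. For genes lying in an intron of the partner the counts were mostly whole, and antisense RNA and unspliced partner RNA cannot be told apart there.

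**Figure D1:**
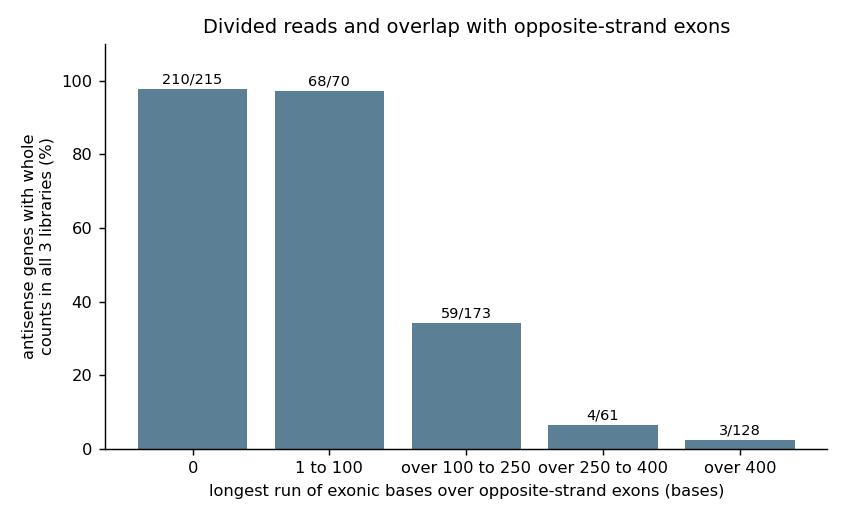
Share of antisense genes with whole counts in all 3 libraries (y axis, percent) by the longest run of their exonic bases over opposite-strand exons (x axis, bases), with the numbers of genes above the bars. It falls from 97.7% with no overlap to 2.34% over 400 bases.

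Most antisense genes were low or silent, and a minority were well above 1 TPM. Counts were 0 in every library for 1274 of the 2945 genes, which at this depth allows up to 0.220, 0.124 and 0.182 CPM (counts scaled to library size) in replicates 1, 2 and 3 (3 counts, counting error only). The number at 1 TPM or more in every library was 633 (21.5%), beside 24.1% of all genes. The share was 45.2% for protein-coding genes and 5.84% for lincRNA genes, which lie between other genes. Sense intronic RNA genes, which lie in an intron on the strand of the host gene, reached 42.5%, and bidirectional promoter lncRNA genes 19.5%. Only 106 antisense genes had a mean of 10 TPM or more. Members took 0.733, 0.575 and 0.574% of gene counts in replicates 1, 2 and 3 (0.628% ± 0.0917, SD, n = 3), so replicate 1 stood above the other libraries. The 10 members with most counts held 27.0% of all counts on antisense genes, and AC119228.1 alone held 9.24%.

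**Figure D2:**
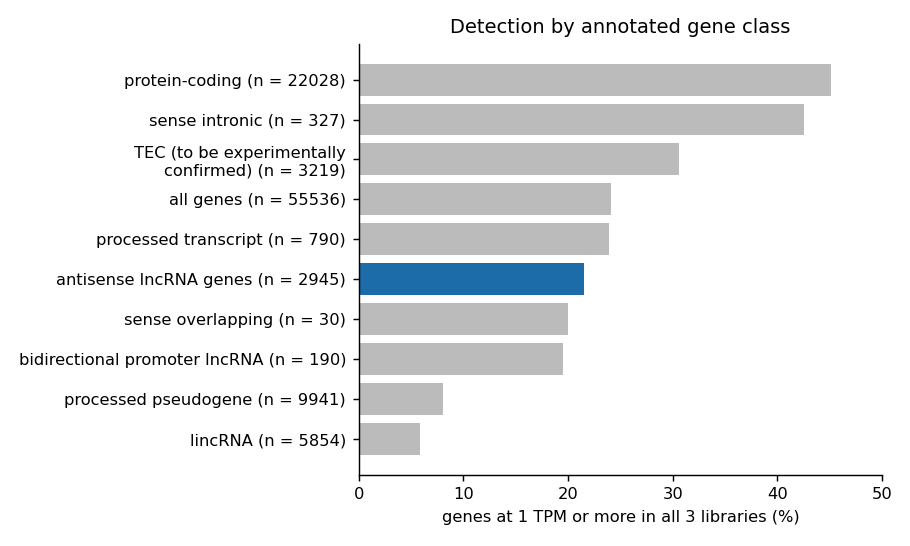
Share of genes at 1 TPM or more in all 3 libraries (x axis, percent) for each annotated class (y axis, with its number of genes). Antisense lncRNA genes, in blue, stand at 21.5%, between protein-coding genes at 45.2% and lincRNA genes at 5.84%.

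Members were then placed by their position against protein-coding genes of the other strand. A partner lay around 1281 members (inside), 1070 had a transcript start within 1000 bases of any transcript start of a partner, internal ones included (head to head), 246 lay over the end of a partner, 143 over its start and 57 spanned it. No protein-coding partner was found for 148. Compared after the values were seen, the outermost starts of member and partner lay within 1000 bases of each other in 612 of the head to head members and over 10000 bases apart in 219, and 377 lay wholly over protein-coding genes. Of genes inside a partner 320 of 1281 (25.0%) reached 1 TPM in every library, and of head to head genes 224 of 1070 (20.9%). Of genes without a protein-coding partner 18 of 148 did (12.2%). Members with no exonic base over a protein-coding gene of either strand numbered 234, of which 13 (5.56%) reached that level, close to the 5.84% of lincRNA genes. Members wholly over protein-coding genes numbered 1694, of which 431 (25.4%) reached it.

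Detection went with the level of the partner. Beside a partner under 0.1 TPM, 21 of 966 antisense genes (2.17%) reached 1 TPM in every library. The count was 17 of 357 (4.76%) beside a partner of 0.1 to 1 TPM, 139 of 633 (22.0%) at 1 to 10 TPM, 374 of 745 (50.2%) at 10 to 100 TPM and 64 of 96 (66.7%) over 100 TPM. Inside a partner the share ran from 3 of 457 (0.656%) to 33 of 43 (76.7%), and head to head from 13 of 300 (4.33%) to 25 of 42 (59.5%). Across the genes, Spearman's rho between the mean TPM of a member and its partner was 0.770 inside (n = 1281), 0.753 over the end (n = 246) and 0.635 head to head (n = 1070). These points come from the same 3 libraries, some share a partner, and overlapping genes can share reads. The part of unspliced partner RNA in this relation was not tested.

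**Figure D3:**
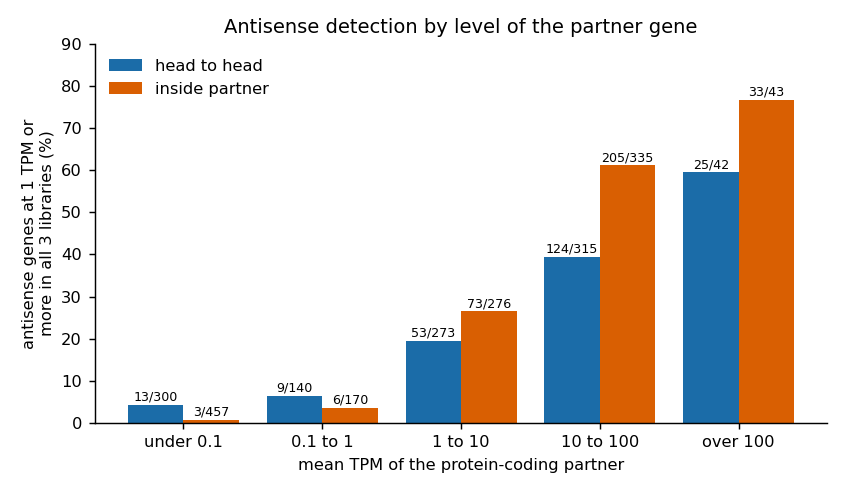
Share of antisense genes at 1 TPM or more in all 3 libraries (y axis, percent) by mean TPM of the protein-coding partner (x axis), for genes head to head with the partner (blue) and inside it (orange). Numbers above the bars are genes at that level of all genes, and both rows rise with the partner, from 0.656 to 76.7% inside and from 4.33 to 59.5% head to head.

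AC119228.1 was the most abundant antisense gene. It has 3 exons on the minus strand of chromosome 19 (29373417 to 29384471, mm10), all within Cd274, the gene of the checkpoint ligand PD-L1. It had 280, 117 and 171 TPM in replicates 1, 2 and 3 (189 ± 83.2, SD, n = 3), and Cd274 itself 304, 147 and 203 TPM. The order of the libraries was the same in both genes, with replicate 1 on top and replicate 2 at the bottom. Of the exonic bases of AC119228.1, 10.8% lay over exons of Cd274, and its counts were divided.

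Gm28913 and Gm28914 lie within Ikbke, which encodes IKK-epsilon, a kinase that activates interferon regulatory factors. Gm28913 (chromosome 1, 131263330 to 131266749, plus strand) had 183, 83.5 and 119 TPM, and Gm28914 had 54.0, 26.3 and 26.04 TPM. Ikbke had 1249, 934 and 940 TPM, so both antisense genes stood far below their partner in every library. Their exons overlapped those of Ikbke by at most 112 bases in a run and their counts were whole. On log2 CPM Gm28913 was 1.93-fold higher in its highest library than in its lowest, beside 1.28-fold for Ikbke.

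Gm7480 and 4930405A10Rik lie in introns of Lrmda, a gene named for melanocyte differentiation. Gm7480 (chromosome 14, 22032086 to 22036103, minus strand) had 176, 63.3 and 92.9 TPM, and 4930405A10Rik had 60.9, 40.7 and 43.7 TPM. Lrmda varied less, with 109, 90.2 and 96.1 TPM. Gm7480 stood above its host gene in replicate 1 and below it in the other libraries.

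Gm16094 and F630028O10Rik shared no exonic base with any protein-coding gene, and both had whole counts. Gm16094 (chromosome 1, 85599286 to 85599839, plus strand) starts 469 bases from Sp110, an interferon-inducible nuclear body gene that runs the other way. It had 164, 57.2 and 74.3 TPM (404, 278 and 197 counts), and Sp110 had 423, 288 and 299 TPM. Sp140 starts downstream of Gm16094 on the same strand, at 85600378, and had 222, 131 and 128 TPM. F630028O10Rik (chromosome X, 96239926 to 96243636, plus strand) had no protein-coding partner, and 102, 43.1 and 77.2 TPM from 3394, 3146 and 3045 counts. In each of these 2 genes replicate 1 was highest and replicate 2 lowest in TPM. They were the only members of the highest 20 that were clear of protein-coding genes.

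Tug1, a conserved lncRNA required for male fertility and photoreceptor development, starts 86 bases from a start of Morc2a, a chromatin regulator, on chromosome 11 (3639785 to 3649673, minus strand). It had 58.2, 38.7 and 54.9 TPM, above the 29.6, 33.6 and 37.6 TPM of Morc2a in every library. Only 4.96% of its exonic bases lay over a protein-coding gene, with a run of 483 bases over exons of Morc2a. Over same-strand exons lay 648 bases, and the counts of Tug1 were divided. Its SD of log2 CPM was 0.09, the smallest of the 20.

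4933423P22Rik had 87.9, 55.7 and 60.6 TPM. It lies in introns of Ptprj, a receptor tyrosine phosphatase gene, 66 bases from an internal start, and Ptprj had 82.7, 57.3 and 58.0 TPM. The pair was nearly level in each library. Gm46411 had 70.0, 38.1 and 54.2 TPM in introns of Rreb1, a zinc finger transcription factor. Gm37787 had 80.9, 19.0 and 31.3 TPM within Slamf7, a leukocyte surface receptor. Its mean of 43.7 TPM was 25.1 without replicate 1, and its counts were divided, with 72.3% of its exonic bases over exons of Slamf7.

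Gm45479 had 43.8, 37.5 and 32.1 TPM in introns of Irf2, an interferon regulatory factor, and Gm40578 had 49.4, 26.2 and 47.8 TPM over the end of Tnfaip2, a gene induced by TNF. Gm26740 had 53.6, 40.4 and 57.7 TPM inside Raet1e, which encodes a ligand of the NK cell receptor NKG2D and had 0.64, 0.56 and 0.57 TPM. It was the 1 gene of the 20 with a partner under 1 TPM. Gm26740 overlapped 2 protein-coding genes of the opposite strand, and the level of the other is not given here. Gm13556 lay in Dennd1a, Gm45606 at Slc43a2, Gm17160 in Mast4, AC132460.3 in Anks1, and Gm26716 and Gm12970 at the syndecan gene Sdc3, with means from 34.6 to 40.9 TPM. The level of Gm17160 rested on only 38, 30 and 24 counts over 260 exonic bases. Of the 20, 15 lay wholly over protein-coding genes, 17 had a partner of 50 TPM or more, 14 had whole counts and 18 had their highest TPM in replicate 1. Replicate 1 was also on top in log2(TPM + 1) for 63.4% of antisense genes and 54.0% of all genes, where these averaged 50 counts or more. The 20 were picked by mean TPM, which 1 high library raises, and the part of this choice in the 18 was not tested.

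**Figure D4:**
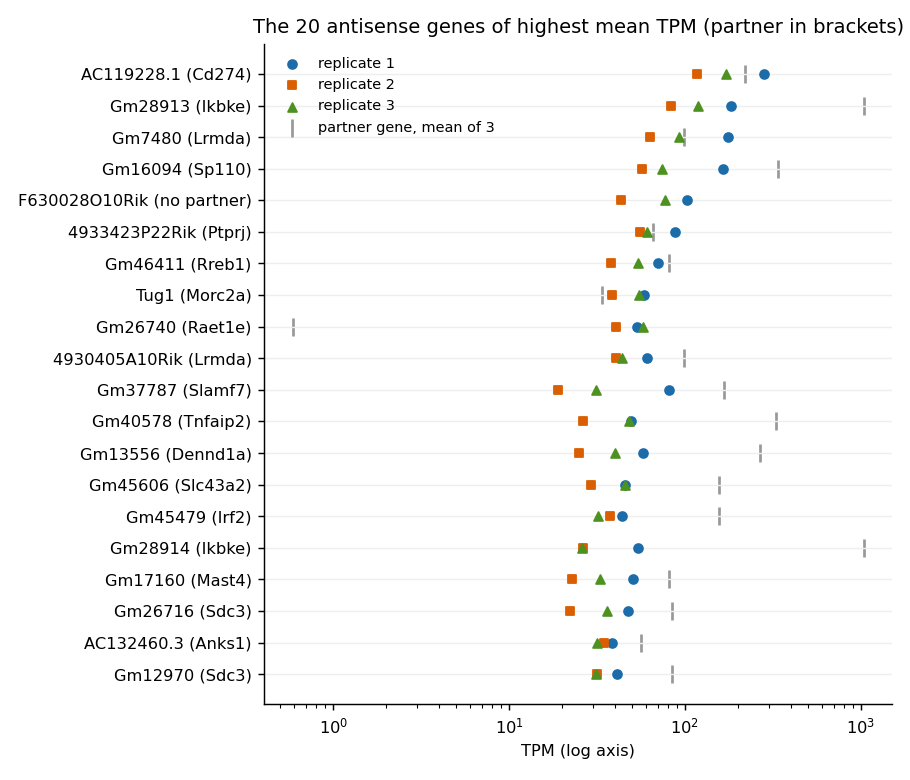
TPM (x axis, log scale) of the 20 antisense genes of highest mean TPM in replicates 1 (circles), 2 (squares) and 3 (triangles), with the mean of the partner gene as a grey bar. AC119228.1 is highest at 280, 117 and 171 TPM. Gm26740, which overlaps 2 opposite-strand protein-coding genes, is far above its partner Raet1e. No other partner lies under 10 TPM.

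With no exonic base over a protein-coding gene, 13 members reached 1 TPM in every library. They could still start beside such a gene or span it, as 1600010M07Rik spanned Ipo7 (24.8, 17.9 and 21.1 TPM). 1600010M07Rik had only 6, 11.1 and 4 counts, which were divided. After Gm16094 and F630028O10Rik came 4930430E12Rik with 17.7, 5.98 and 11.4 TPM and Gm26947 with 8.52, 6.84 and 10.3 TPM. 4930526L06Rik, head to head with Ms4a13, had 5.61, 3.01 and 3.44 TPM while Ms4a13 was listed at 0 TPM. Outside its exons 4930526L06Rik overlapped 3 protein-coding genes of the other strand. Fbxl12os, named for the F-box gene Fbxl12, had 3.47, 4.15 and 3.26 TPM. Of its exonic bases 26.9% lay over opposite-strand exons, of Gm26521 and Gm48069, and its counts were divided. These genes stood well under the 2 highest, and their libraries were not ordered alike.

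The 21 members that reached 1 TPM beside a partner under 0.1 TPM were looked up after the values were seen. Gm26642 was highest, at 17.0, 14.8 and 14.2 TPM, across Elf3, an epithelial transcription factor at 0, 0.05 and 0 TPM, but its exons also met those of Rnpep. Gm17056 had 6.82, 4.42 and 12.5 TPM from whole counts, head to head with Lsmem1, which was listed at 0. A630012P03Rik had 4.02, 1.13 and 1.30 TPM (mean 2.15, or 1.22 without replicate 1) over the start of Gpc3, a heparan sulfate proteoglycan gene at 0.15, 0.07 and 0.08 TPM. Plxna4os1 had 2.32, 1.62 and 1.62 TPM within Plxna4, a semaphorin receptor gene at 0.11, 0.12 and 0.07 TPM.

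The names of 178 members end in os (opposite strand), and for 175 the sense gene was found by its symbol. All 175 pairs lay on opposite strands of the same chromosome. The antisense gene reached 1 TPM in every library in 37 pairs, the sense gene in 74 and both in 35. The sense gene was higher in every library in 88 pairs and the antisense gene in 8, while both were listed at 0 TPM in 36. Ties and pairs with a mixed order made up the rest. The median log2 ratio of antisense to sense, with 1 TPM added to each, was -0.18 ± 0.02 (SD over libraries, n = 3), and many silent pairs hold it near 0. In the 20 pairs where both genes had a mean of at least 50 counts, it was -2.64 ± 0.12. A paired exact test over 3 libraries cannot go below p = 0.25 two-sided, so none was run.

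Brip1os and Mypopos were the 2 of these 20 pairs in which the antisense gene was above the sense gene in every library. Brip1os (chromosome 11, 86201370 to 86304443, plus strand) had 11.1, 8.28 and 9.54 TPM and Brip1, a helicase of DNA repair, 1.73, 1.39 and 1.49 TPM, a log2 ratio of 2.06 ± 0.10 (n = 3). Part of the exons of Brip1os lay over exons of Ints2 and Med13, and its counts were divided. Mypopos had 16.1, 9.78 and 14.8 TPM and Mypop, a Myb-related transcriptional repressor, 6.61, 3.38 and 5.81 TPM, a log2 ratio of 1.23 ± 0.07. In both pairs the groups of 3 values did not overlap.

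With fewer counts, 6 more pairs had the antisense gene on top in every library. Rab26os had 6.84, 6.08 and 5.34 TPM against 1.57, 2.02 and 1.15 TPM of Rab26, a vesicle GTPase, but starts 310 bases from a start of Traf7, which had 97.8 ± 14.2 TPM (n = 3). Bach2os had 2.43, 1.17 and 2.93 TPM within Bach2, a transcriptional repressor of lymphocytes, which had 0.63, 0.36 and 0.51 TPM. Tmem147os had 3.86, 3.08 and 5.13 TPM against 3.70, 1.35 and 2.69 TPM. Dhrs13os had 1.34, 1.62 and 1.91 TPM against 0.33, 0.22 and 0.23 TPM. The last 2 were Dmrta2os and Plekhd1os, both at or under 1.01 TPM.

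The 5 lowest ratios belonged to pairs with an abundant sense gene. Dhx58os had 4.33, 3.50 and 3.60 TPM and Dhx58, the RIG-I-like receptor LGP2, 136, 100.2 and 106 TPM, a log2 ratio of -4.57 ± 0.10. Man2c1os had 2.35, 3.21 and 3.84 TPM against 91.0, 86.0 and 100.3 TPM of Man2c1, a cytosolic mannosidase (ratio -4.51 ± 0.23). Arhgap15os had 3.97, 2.20 and 3.20 TPM against 71.7, 54.2 and 66.9 TPM of Arhgap15, which inactivates Rac (-4.00 ± 0.12).

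Dnmt3aos (chromosome 12, 3859293 to 3862244, minus strand), whose CG-poor start is shown above, had 12.3, 8.51 and 11.2 TPM within Dnmt3a, a de novo DNA methyltransferase. Dnmt3a had 199, 158 and 191 TPM, a log2 ratio of -3.99 ± 0.08. Igf1os had 1.57, 2.05 and 4.49 TPM and Igf1, a growth factor made by macrophages, 37.4, 28.9 and 50.2 TPM (-3.47 ± 0.37). All 5 sense genes were above their antisense genes by more than the spread between libraries.

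Among the most abundant named pairs, Peak1os led by its mean, but 1 library decided this. It had 46.2, 7.38 and 10.6 TPM (21.4 ± 21.5, n = 3) within Peak1, a pseudokinase gene at 41.5, 22.7 and 32.7 TPM. It was above Peak1 in replicate 1 and below it in the others, and without replicate 1 its mean was 9.00 TPM. Adap2os had 23.5, 16.7 and 10.7 TPM within Adap2, which had 188, 124 and 140 TPM. Rab10os, with the CG-rich start, had 14.6, 12.8 and 12.0 TPM, and Rab10, a GTPase of membrane traffic, 21.8, 11.0 and 16.3 TPM. Their order was mixed: Rab10os was higher in replicate 2 and lower in the other libraries.

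Tmcc3os had 18.1, 9.82 and 10.8 TPM over the end of Tmcc3 (126, 62.3 and 78.3 TPM). Aknaos had 15.8, 7.81 and 7.94 TPM within Akna, the gene of an AT-hook protein (64.1, 49.97 and 55.96 TPM), 155 bases from an internal start. Uckl1os had 9.13, 8.94 and 9.87 TPM and Uckl1, a uridine kinase-like gene, 118, 104 and 116 TPM. All exonic bases of Uckl1os lay over protein-coding genes, 28.6% of them over exons of Uckl1 and Zfp512b, and its counts were divided. Galnt6os (5.70 ± 0.681 TPM, n = 3) was below Galnt6 in every library, with a log2 ratio of -0.92 ± 0.23. Rptoros (4.59 ± 0.651 TPM) was below Rptor, the mTORC1 subunit raptor, by -2.93 ± 0.04. Sp3os, Tnfsf13os and Ccdc142os had means of 4.75, 4.48 and 7.47 TPM, and their sense genes were higher.

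**Figure D5:**
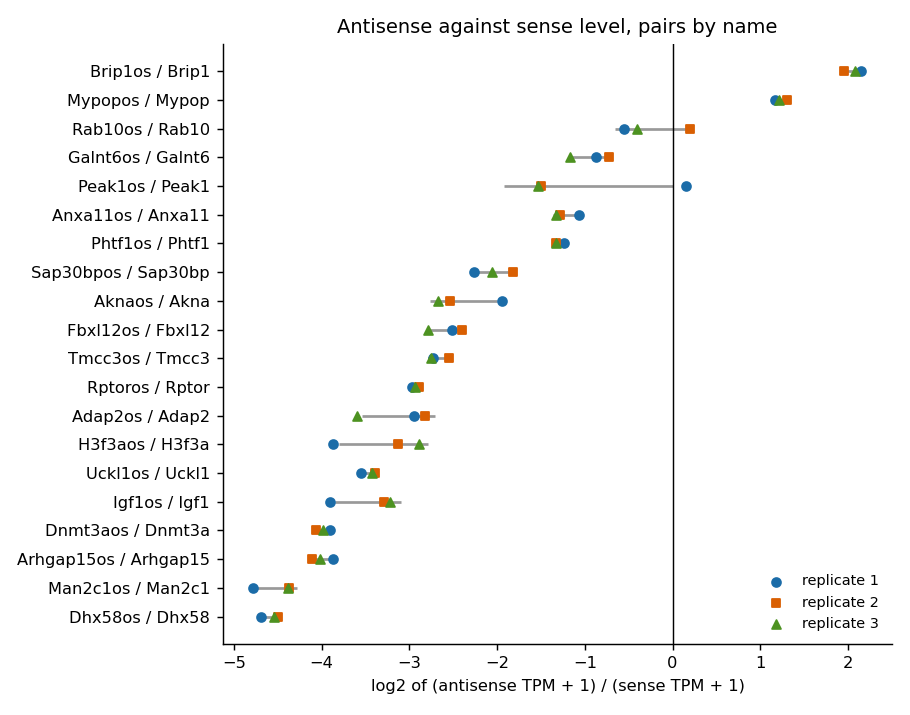
Log2 ratio of antisense to sense level (x axis, 1 TPM added to each) in replicates 1 (circles), 2 (squares) and 3 (triangles) for the 20 named pairs with a mean of at least 50 counts in both genes. Grey lines are the mean ± SD (n = 3), and Brip1os and Mypopos stand right of 0 in all 3 libraries while Peak1os and Rab10os cross it.

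Members were also grouped by lists of sense genes, which differed in level. Of all members 21.5% reached 1 TPM in every library, as given above. Of the members whose partner by position was an inflammatory gene 7 of 10 reached 1 TPM in every library, and 4 of 6 did beside an interferon-response gene. Besides those in Ikbke, Cd274 and Irf2, they included Gm43964 in Irak2, a kinase of TLR signalling (12.4, 3.89 and 7.10 TPM), and 4930599N23Rik at Parp12 (6.20, 3.17 and 3.67 TPM). Gm13822 at Oasl1 had 5.06, 0.67 and 3.68 TPM. The partners of these 2 lists were 8 and 5 genes, with medians of 50.3 and 156 TPM. Beside any partner of 10 to 100 TPM the share was 50.2%, and over 100 TPM 66.7%, as given above. Beside genes of macrophage identity and function 3 of 12 reached 1 TPM in every library. They were Gm14011 in Mertk (14.0, 12.5 and 14.9 TPM), Gm26626 in Runx1 (2.66, 2.37 and 2.17 TPM) and Junos. The 12 partners of this list had a median of 9.92 TPM, and the share beside any partner of 1 to 10 TPM was 22.0%. The part of partner level in these shares was not tested.

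Members beside developmental regulators were mostly low or silent in the gene tables. None of 45 reached 1 TPM in every library, and their partners had a median of 0 TPM. In at least 1 library 2 did, among them Gm11536 at Hoxb3 (0.81, 0.40 and 1.45 TPM). A second set of values that the authors deposited for the same libraries (the second quantification), looked up after the values were seen, put 10 of the 45 at 1 TPM or above in all 3. Among the 10 were Tbx3os1 (40.1, 28.4 and 42.7 TPM) and A830082K12Rik at Nr2f1 (16.3, 9.94 and 16.1 TPM), both listed at 0 in the gene tables. By name 13 such pairs were found, among them Hoxb3os, Dnm3os, Wt1os, Prox1os and Emx2os, and 9 of the 13 antisense genes were listed at 0. Hoxb3os was highest at 0.47, 0.41 and 0.37 TPM, against 3.98, 1.93 and 5.08 TPM of Hoxb3, a homeobox gene. Across all genes 24.1% reached 1 TPM in every library, and of members beside a partner under 0.1 TPM 2.17% did, as given above. The second quantification also raised the other lists. In it 10 of 10 members beside inflammatory genes and 5 of 6 beside interferon-response genes reached 1 TPM in every library. Beside genes of macrophage identity and function 6 of 12 did.

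By name, 1 pair was found for 71 listed inflammatory genes and 1 for 63 genes of macrophage identity and function. None was found for 52 listed interferon-response genes. Over the whole annotation, with 22028 protein-coding genes, 175 pairs were found. Dhx58, named above, was on none of these lists. Junos, beside the AP-1 gene Jun, had 4.16, 1.54 and 3.03 TPM and Jun 45.9, 18.7 and 41.2 TPM. Both had their top value in replicate 1 and their bottom value in replicate 2. For Junos this order rested on only 22.3, 16.1 and 18.1 counts, which were divided. In the second quantification Junos had a mean of 13.1 TPM. Il1bos, over the start of the cytokine gene Il1b, had 0.15, 0.09 and 0.42 TPM and Il1b 58.6, 21.3 and 53.1 TPM. Il1bos was far below Il1b in each library of the gene tables, and had 5.76, 5.91 and 7.33 TPM in the second quantification.

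Variation between libraries was measured as the SD of log2 CPM for the 347 members with a mean of at least 50 counts. Its median was 0.26, beside 0.20 for 11630 genes of all classes, 0.19 for protein-coding and 0.22 for lincRNA genes at the same minimum. Part of the range went with depth: at 50 to 100 counts the median was 0.29 for members and 0.27 for protein-coding genes, and at 300 counts or more 0.24 and 0.17. Of the 347 members 161 (46.4%) were highest in replicate 1, 119 in replicate 2 and 67 in replicate 3. Of all genes 35.8% were highest in replicate 1. The share was 52.3% for lincRNA and 69.6% for sense intronic genes, both above that of antisense genes. The part of starting RNA amount in this was not tested.

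Gm44876, within the interleukin 4 receptor gene Il4ra, varied most, with 2.07, 17.99 and 0.17 TPM from 10.9, 199 and 1 counts. It was high in replicate 2 alone, and its mean of 6.74 TPM was 1.12 without that library. In the second quantification it had 12.8, 17.3 and 9.41 TPM, which were much closer together. Il4ra had 64.1, 70.1 and 54.7 TPM, and 85.2% of the exonic bases of Gm44876 lay over exons of Il4ra. Gm10552 at Sp140 had 14.5, 8.31 and 2.17 TPM and was low in replicate 3, with a mean of 8.33 TPM, or 5.24 without replicate 1. Gm26759, over the end of Irf2bp2, had 3.07, 12.2 and 10.1 TPM and was low in replicate 1. These 3 had divided counts.

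Of the 10 most variable members 6 had divided counts. The other 4 had whole counts: Peak1os, A230083G16Rik over the start of Ptms (12.6, 3.03 and 10.3 TPM), A630012P03Rik, and Gm15987 inside Clec2g (14.1, 11.2 and 5.23 TPM). Gm37787, Gm20531 at Ptpn6 and 1700019L13Rik at Csrnp1 completed the 10, and differed up to 3.45-fold between libraries in CPM. Divided counts did not go with a higher SD in general: the median was 0.25 in 174 members with divided counts and 0.28 in 173 with whole counts.

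Members were then set beside their partners in each library. In the 300 members and partners by position with at least 50 counts each, 145 (48.3%) were highest in the same library. The share was 79 of 148 (53.4%) inside a partner and 49 of 112 (43.8%) head to head. It was 34 of 95 (35.8%) for members only partly over protein-coding genes and 110 of 204 (53.9%) for those wholly over them. Of protein-coding genes, 32.1, 39.6 and 28.3% were highest in replicates 1, 2 and 3. Such uneven shares alone make some pairs match, and their part was not tested. Spearman's rho between the log2 difference of replicate 1 from replicate 2 in the member and in the partner was 0.547 inside, 0.364 head to head and 0.335 for the members partly over protein-coding genes, over genes that share the libraries and, in part, reads. Of the 20 named pairs 11 were highest in the same library. Peak1os, Adap2os, Mypopos and Tmcc3os were among these, while Dnmt3aos, Brip1os and Rab10os peaked in another library than their sense genes.

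The second quantification gave other levels for many members. For the 633 members counted above, the ratio of its mean TPM to the first had a median of 1.61, and 257 were more than 2-fold apart. The median was 1.33 for protein-coding genes at the same minimum. Gm26716, whose exonic bases lie wholly over exons of Sdc3, had a mean of 1.91 TPM in place of 35.3. Gm28913 had 363 TPM in place of 128, Adap2os 70.4 in place of 16.9 and Igf1os 14.9 in place of 2.70. Wt1os, listed at 0 above, had 19.7 TPM. AC119228.1 (179 TPM), Tug1 (53.3 TPM) and Rab10os (13.4 TPM) were close to the first values.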

How the data were processed

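The authors' gene tables hold expected counts and TPM per gene, and a second set of the authors' transcript tables holds estimated counts and TPM, which were summed per gene. Per the file headers and deposited notes the build is mm10 with annotation M21. For programs, versions and strand setting, the record is: not given in the sources used here. Entries that are not genes took 2.46, 0.484 and 0.327% of counts in replicates 1, 2 and 3 and were left out of library sizes. Members and lists were chosen with earlier results of these data known. Partners were the protein-coding genes of the opposite strand in GENCODE M21 by position, or the gene named before os. Expected counts were rounded for log2 CPM with edgeR 4.0.16 (TMM, prior count 2), and a floor of 3 counts covers counting error only. Named genes were the 20 members of highest TPM, the 15 highest os pairs, the 10 most variable members, the 5 highest and 5 lowest pair ratios, and os pairs of listed sense genes with at least 10 counts; others named were chosen after their values were seen. Alternatives were DESeq2 1.42.0 size factors, other thresholds, pseudocounts and filters, CPM, the second tables and leaving out each replicate. Python 3.11.15 and R 4.3.3 were used, and the variation measure was tested on simulated data. With 1 group no test was run.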

Additional observations from a re-analysis of the deposited data

How the results depend on the processing

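The second quantification moved the counts most. It put 1324 antisense genes at 1 TPM or more in every library in place of 633, of which 619 were shared, 73 of the members clear of protein-coding genes in place of 13, 1.21% of counts on members in place of 0.628%, 35 pairs with the antisense gene above the sense gene in place of 8, and a median log2 ratio of -0.57 in place of -0.18. With it 491 of 1045 members were highest in replicate 1 and 27 of 46 pairs in the same library, and with a minimum of 10 counts 338 of 797 members and 23 of 47 pairs. The median log2 ratio was -0.81 with a pseudocount of 0.1, -1.77 with 0.01 and -0.38 in CPM, and 5 pairs had the antisense gene higher in CPM. The cause was not tested, apart from the larger sets that a lower minimum admits. Leaving out each replicate gave 656 to 691 members at 1 TPM, 13 to 15 of those clear of protein-coding genes, 0.575 to 0.654% of counts, a median SD of 0.19 to 0.23, 9 to 11 pairs and a median ratio of -0.19 to -0.18. Of 49 named members 25 moved by more than 1 SD in the second quantification, and 5 moved by over 1.5 times without 1 replicate: Gm44876 from 6.74 to 1.12 TPM without replicate 2, and without replicate 1 Peak1os from 21.4 to 9.00, Gm37787 from 43.7 to 25.1, Gm10552 from 8.33 to 5.24 and A630012P03Rik from 2.15 to 1.22. In log2(TPM + 1) 220 of the 347 members were highest in replicate 1, as were 54.0% of all genes. Windows of 500 and 2000 bases gave 844 and 1283 head to head members.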

Other observations

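Some lncRNAs of the class stood above their partner by position without an os name. Gm17435 had 28.8, 15.3 and 16.7 TPM head to head with Slc35e1, which had 5.26, 3.36 and 3.85 TPM (log2 ratio 2.00 ± 0.21, SD, n = 3). The exons of Gm17435 also met those of Med26, and its counts were divided. Etohd2 had 15.5, 9.99 and 10.8 TPM at Isca1, an iron-sulfur cluster assembly gene at 7.30, 6.86 and 7.34 TPM. Its exons met those of Tut7 as well as Isca1, and its counts were divided. Gm4117 had 7.31, 4.34 and 4.64 TPM at Vcan, the gene of the matrix proteoglycan versican, which had 4.93, 2.48 and 2.94 TPM. All exonic bases of Gm4117 lay over opposite-strand introns, and it overlapped 2 protein-coding genes. The other genes that these members lay over were not compared. In all, 22 of the 300 members and partners with at least 50 counts each had the member above its partner in every library, and these were listed after their values were seen.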
